A study of Bos taurus with 60 samples.

Results

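The miR-26 family was followed through 6 regions of the cattle intestine. Its members were taken by name from the deposited table of miRNA counts, as the rows bta-miR-26a, bta-miR-26b and bta-miR-26c, and are 3 of the 608 miRNAs listed there. Small RNA was sequenced from the small intestine (duodenum, and proximal and distal jejunum) and the large intestine (cecum, and spiral and descending colon) of 10 British × Continental feedlot steers. Of these, 5 were super-shedders (SS), which had shed Escherichia coli O157 in high numbers, and 5 were pen-mates called non-shedders (NS), with no E. coli O157 found in the feces. The tissue was taken after slaughter, and by then all but 1 of the SS steers tested positive below the level that defines an SS, so the phenotype describes an earlier shedding state. Every steer gave 1 library in every region, which makes 60 libraries, 5 NS and 5 SS in each region. The steer is the replicate. No other treatment is given for either phenotype, and ages of the steers are not stated in the labels. Each sample was a piece of intestinal tissue ground to powder, and the layers of the wall it held are not stated. Fewer cells of a type and less RNA per cell therefore cannot be told apart.

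A microRNA is a short RNA that guides an Argonaute protein to messenger RNAs, and the bases near its 5′ end, the seed, choose the targets. In vertebrates miR-26a and miR-26b share a seed and lie in introns of genes for small phosphatases of the CTDSP family, with which they can be made from the same transcript. The pair is found in most tissues, is known to rise as cells differentiate, and is known in human and mouse cells to repress EZH2, a histone methyltransferase that keeps cells immature. In the RefSeq annotation of the ARS-UCD2.0 cattle assembly, which was used for names and neighbours only, MIR26B lies on chromosome 2 inside CTDSP1, and MIR26A-2 lies on chromosome 5 inside CTDSP2. MIR26A-1 lies on chromosome 22 inside CTDSPL. The gene of the third member, MIR26C, has the same start and the same end as MIR26A-1. Only 6 of the 1032 miRNA genes in that annotation share both ends with another. Reads of bta-miR-26a cannot be divided between its 2 genes from these counts.

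The libraries held 535373 to 19346766 miRNA counts, with a median of 1735054. The deepest were the descending colon libraries of NS108 and SS310. The smallest count of any member in any library was 2231, for bta-miR-26b in the distal jejunum of NS108, which is 4167 CPM (the count divided by the library total and scaled to 1e6) with an exact 95% interval of 3996 to 4343. Counting error was therefore small beside the differences between steers. Markers of epithelium, led by bta-miR-192, and of smooth muscle, led by bta-miR-143, were found in every library. A library that stands apart is the descending colon of SS299. Its 9 epithelial markers summed to 2844 CPM. The jejunal libraries of SS299 were as low, at 1538 CPM in the proximal and 2534 CPM in the distal jejunum, while its duodenum held 207700 CPM. In the NS libraries of all regions this sum ran from 16800 to 336000 CPM. The descending colon levels and region tests of bta-miR-26a are given with and without this library.

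bta-miR-26a and bta-miR-26c were among the most abundant miRNAs of the intestinal tissue, and bta-miR-26b was lower. Over all libraries bta-miR-26a had 4142530 counts, 2.45% of the total. bta-miR-26c had 3905643 counts, or 2.31%, and bta-miR-26b had 620247, or 0.367%. In single libraries bta-miR-26a ranked between place 3 and place 10 by count among all miRNAs, bta-miR-26c between 4 and 11, and bta-miR-26b between 18 and 31. The 3 members together made up between 3.36% and 13.8% of the counts of a library. Whether bta-miR-26a and bta-miR-26c share reads was not tested, so this sum may count some reads more than once. The highest share was in the descending colon of NS242, where bta-miR-143 had a low share, at 11.7%. Over all 60 libraries bta-miR-143 took 8.38% to 70.4% of the counts. Since so much of each library was 1 miRNA, the share left for the rest moved with it, and levels are given below both as CPM of the library total and after TMM scaling, which sets libraries to the same level for the bulk of their miRNAs.

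The mean level of bta-miR-26a was 27476 ± 11203 CPM (SD, n = 60), with a range from 15527 to 66826. By region it ran from 33935 ± 14242 CPM for the duodenum through 31807 ± 17360 for the descending colon, 25948 ± 8947 for the distal and 25223 ± 6717 for the proximal jejunum, and 24798 ± 6765 for the spiral colon to 23143 ± 6581 for the cecum (SD, n = 10 each). The descending colon had 28712 ± 15209 CPM without SS299 (SD, n = 9). The 6 means lie within 1.47-fold of each other and each SD is large beside the gaps between neighbours in this order. bta-miR-26b averaged 4501 ± 1559 CPM (SD, n = 60), ranging from 1492 to 9683. Its mean fell in the order duodenum (5613 ± 1823 CPM), distal jejunum (4686 ± 1728), proximal jejunum (4475 ± 1016), cecum (4172 ± 1117), spiral colon (4148 ± 939) and descending colon (3913 ± 2099), each over 10 libraries. The duodenum was thus the first region by CPM for both.

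**Figure D1:**
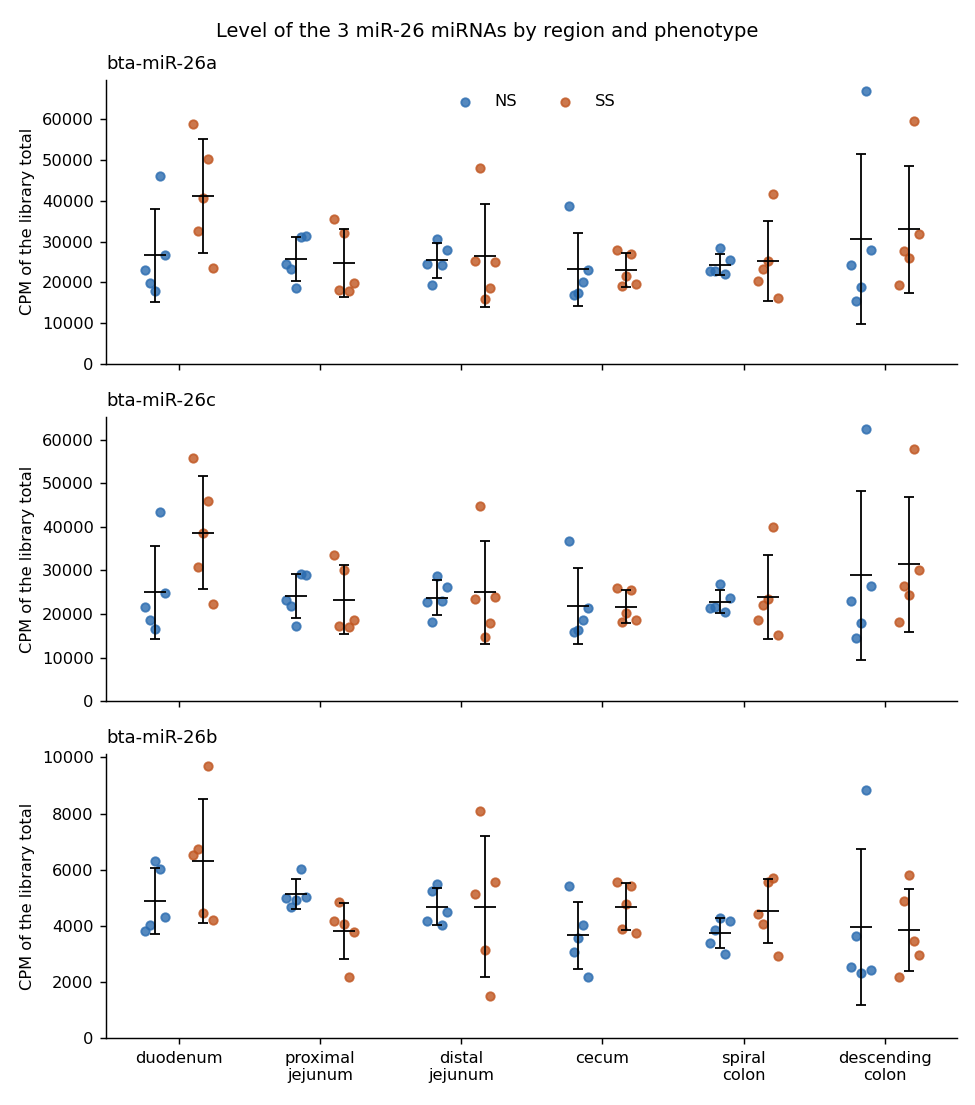
Level of bta-miR-26a (top), bta-miR-26c (middle) and bta-miR-26b (bottom) in CPM of the library total (linear axes from 0) in each of the 6 regions; points are single steers, NS in blue and SS in orange, with bars at the mean and SD of 5 steers. NS and SS points overlap in every region for each miRNA, and the 2 highest bta-miR-26a values are NS242 (66826 CPM) and SS299 (59659 CPM) in the descending colon.

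Duodenal levels of bta-miR-26a in the NS steers were 23071 CPM in NS108, 19745 in NS152, 17762 in NS165, 46146 in NS242 and 26593 in NS745. In the SS steers they were 58743 CPM in SS274, 32647 in SS287, 40765 in SS294, 50350 in SS299 and 23532 in SS310. The groups overlapped, with NS242 above 3 of the SS steers and SS310 below NS242 and NS745. After TMM scaling the mean was 25043 ± 7263 CPM in NS and 34234 ± 8425 in SS (SD, n = 5 each), and the log2 fold change of SS over NS was 0.44 (SE 0.29, adjusted p = 0.895 by edgeR's quasi-likelihood test with Benjamini-Hochberg adjustment over 341 miRNAs). At the false discovery rate (FDR) of 10% that test called 0.293% of the miRNAs in the duodenum. bta-miR-26b had 3822, 4047, 6295, 6037 and 4309 CPM in NS108, NS152, NS165, NS242 and NS745, and 6512, 6740, 4462, 9683 and 4222 in SS274, SS287, SS294, SS299 and SS310. Its log2 fold change was 0.10 (SE 0.25, adjusted p = 0.966 by the quasi-likelihood test). In 1 SS duodenum library bta-miR-122, a liver miRNA, reached 11800 CPM, against at most 1.22 in the NS duodenum, and its part in these values was not tested.

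In the proximal jejunum bta-miR-26a stood at 24454 CPM in NS108, 23240 in NS152, 18513 in NS165, 31115 in NS242 and 31368 in NS745. The SS steers had 35580 CPM in SS274, 18239 in SS287, 31979 in SS294, 17973 in SS299 and 19768 in SS310. They spanned the whole NS range, with 3 steers near its lower end and 2 above its upper end. Here the scaling set the sign of the difference. The fitted log2 fold change was 0.28 (SE 0.32, adjusted p = 0.748 by the quasi-likelihood test, which called 0.282% of 355 miRNAs), and with library size alone it was -0.06. SS299, whose TMM factor was 0.476, moved from the lowest level of this region by CPM to the highest after scaling, at 37725 CPM. bta-miR-26b was the lower member here too, at 4994, 4661, 4922, 6032 and 5044 CPM in NS108, NS152, NS165, NS242 and NS745 and 4193, 4850, 4083, 2200 and 3775 in SS274, SS287, SS294, SS299 and SS310. Only SS287 reached the NS range, and the log2 fold change was -0.19 (SE 0.19, adjusted p = 0.696 by the quasi-likelihood test).

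In the distal jejunum the NS levels of bta-miR-26a were close together, at 24572, 19345, 30702, 24314 and 27912 CPM in NS108, NS152, NS165, NS242 and NS745. The SS levels were wider, at 25225 CPM in SS274, 48017 in SS287, 15791 in SS294, 18580 in SS299 and 25024 in SS310. The highest and the lowest level of the region were both in SS steers. The log2 fold change was 0.52 (SE 0.34, adjusted p = 0.564 by the quasi-likelihood test), where 0.592% of 338 miRNAs were called. It was 0.21 without SS299, whose level rose to 50473 CPM on the TMM scale. bta-miR-26b had 4167, 5253, 5487, 4038 and 4504 CPM in NS108, NS152, NS165, NS242 and NS745, and 5121, 8100, 3143, 1492 and 5555 in SS274, SS287, SS294, SS299 and SS310. The SS group held both ends of the range again, and the log2 fold change was 0.24 (SE 0.26, adjusted p = 0.780 by the quasi-likelihood test).

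In the cecum bta-miR-26a had 38606 CPM in NS108, 16832 in NS152, 17456 in NS165, 20200 in NS242 and 22964 in NS745. The SS steers had 27978, 19138, 21615, 27066 and 19580 CPM in SS274, SS287, SS294, SS299 and SS310. All 5 of these lie inside the NS range, which NS108 stretches. The log2 fold change was -0.36 (SE 0.21, adjusted p = 0.571 by the quasi-likelihood test, with 0.292% of 342 miRNAs called). bta-miR-26b was at 5433, 3068, 3578, 4040 and 2188 CPM in NS108, NS152, NS165, NS242 and NS745, and at 5578, 3891, 4774, 5411 and 3762 in SS274, SS287, SS294, SS299 and SS310. After TMM scaling the 10 cecal libraries lay between 3716 and 4587 CPM, the narrowest range of bta-miR-26b in any region, and the log2 fold change was 0.02 (SE 0.17, adjusted p = 0.972 by the quasi-likelihood test).

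In the spiral colon bta-miR-26a lay at 22891, 22803, 28387, 22041 and 25356 CPM in NS108, NS152, NS165, NS242 and NS745. It lay at 20290, 23267, 25115, 41697 and 16128 CPM in SS274, SS287, SS294, SS299 and SS310. SS299 was the one steer above the NS range by CPM. After TMM scaling it came to 29145 CPM beside 25691 to 28643 in the NS steers, and the log2 fold change was -0.21 (SE 0.18, adjusted p = 0.751 by the quasi-likelihood test, with 0.898% of 334 miRNAs called). With library size alone it was 0.06. bta-miR-26b had 3406, 3865, 4284, 3013 and 4191 CPM in NS108, NS152, NS165, NS242 and NS745, and 4439, 4072, 5568, 5704 and 2939 in SS274, SS287, SS294, SS299 and SS310, a log2 fold change of 0.04 (SE 0.16, adjusted p = 0.981 by the quasi-likelihood test).

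The widest spread of bta-miR-26a was found for the descending colon. The NS steers had 24218 CPM in NS108, 15527 in NS152, 18838 in NS165, 66826 in NS242 and 27867 in NS745. The SS steers had 19379 CPM in SS274, 27742 in SS287, 26065 in SS294, 59659 in SS299 and 31952 in SS310. Each phenotype thus had 1 steer far above the rest. The 2 libraries differed after scaling. NS242, with a TMM factor of 2.14, came down to 31269 CPM, within the range of the other NS steers, whereas SS299 rose to 84256 CPM, above the next highest value of 42698 in SS274. The log2 fold change was 0.28 (SE 0.40, adjusted p = 0.992 by the quasi-likelihood test) and -0.13 without SS299. No miRNA of the 331 tested was called here by the quasi-likelihood test (0%), nor by edgeR's exact test, DESeq2 or limma-voom, while 3 were called with all 60 libraries in 1 fit and 10 had an unadjusted p under 0.05. bta-miR-26b had 2536, 3650, 2331, 8854 and 2434 CPM in NS108, NS152, NS165, NS242 and NS745, and 2194, 4903, 5798, 3462 and 2967 in SS274, SS287, SS294, SS299 and SS310, with a log2 fold change of 0.00 (SE 0.28, adjusted p = 0.997 by the quasi-likelihood test).

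**Figure D2:**
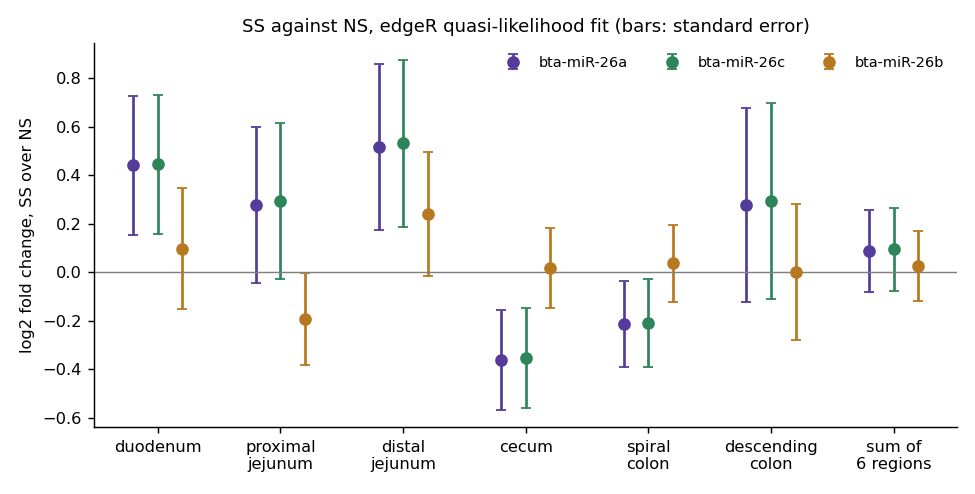
Log2 fold change of SS over NS from edgeR's quasi-likelihood fit for each miR-26 miRNA in each region (5 NS and 5 SS steers) and on the sum of each steer's 6 libraries; points are estimates and bars are 1 standard error. bta-miR-26a runs from -0.36 in the cecum to 0.52 in the distal jejunum, bta-miR-26c lies beside it in each region, and no estimate passed the FDR of 10%.

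No member passed the FDR of 10% between SS and NS in any region, and the intervals were wide enough to hold differences of either sign. When each steer's 6 libraries were summed, bta-miR-26a had a log2 fold change of 0.09 (SE 0.17, adjusted p = 0.898), bta-miR-26b of 0.03 (SE 0.14, adjusted p = 0.998) and bta-miR-26c of 0.10 (SE 0.17, adjusted p = 0.898), all by the quasi-likelihood test, which called 0.583% of 343 miRNAs. The estimates of bta-miR-26a were negative for cecum and spiral colon and positive for the other 4 regions. A test of whether the SS against NS difference itself varied between regions gave an adjusted p of 0.960 for each member by the quasi-likelihood test with the steer as a term. That test called 0 of 381 miRNAs (0%), with 11 at an unadjusted p under 0.05, and 1 when phenotype took the place of the steer.

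The marker lists gave a background for these values. None of the 9 epithelial miRNAs (bta-miR-192, bta-miR-215 and bta-miR-375 were the most abundant) and none of the 5 smooth muscle miRNAs was called between SS and NS in any region by the quasi-likelihood test. The median log2 fold change of the epithelial list was -0.10 for the duodenum, -0.87 for the proximal and -0.05 for the distal jejunum, 0.57 for the cecum, and -0.04 for the spiral and -0.45 for the descending colon. That of the smooth muscle list was -0.55, 1.05, 1.10, -0.89, -0.38 and -0.36 in the same order, and that of all miRNAs tested was 0.00, 0.11, 0.06, -0.01, -0.03 and 0.04. Smooth muscle and bta-miR-26a had estimates of the same sign for both parts of the jejunum, the cecum and the spiral colon. Their signs were opposite for the duodenum and the descending colon. The epithelial median had the sign opposite to bta-miR-26a in every region but the spiral colon, though some of these medians were close to no change. The part of either list in the bta-miR-26a values was not tested. Of the other lists, 1 of 3 erythrocyte miRNAs was called, for the spiral colon. Across the 60 libraries, which share steers and denominators, Spearman's rho of log2 TMM-scaled CPM with the list level was 0.29 for bta-miR-26a and smooth muscle, -0.27 for epithelium and -0.39 for leukocytes. For bta-miR-26b it was 0.09, 0.17 and -0.09.

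Along the intestine, the mean of bta-miR-26a was highest in the descending colon once libraries were scaled by TMM, but its lead over the duodenum did not pass the FDR. Its scaled mean was 36228 ± 18354 CPM for the descending colon, 29638 ± 8858 for the duodenum, 25823 ± 3250 for the spiral colon, 24410 ± 10114 for the distal jejunum, 24000 ± 5893 for the cecum and 23603 ± 7994 for the proximal jejunum (SD, n = 10 each). Without SS299 the descending colon had 30892 ± 7654 CPM (SD, n = 9), still the highest mean. With all libraries it was above the duodenum by 0.29 on the log2 scale (SE 0.21, adjusted p = 0.363 by the quasi-likelihood test), in 5 of 10 steers. It was above the spiral colon by 0.47 (SE 0.21, adjusted p = 0.788 by the same test), in 8 of 10 steers. The order differs from that by CPM, where the duodenum came first. The F test over the 6 regions gave an adjusted p of 0.0872 for bta-miR-26a, 0.0841 for bta-miR-26c and 0.320 for bta-miR-26b by the quasi-likelihood test. At the FDR of 10% that test called 32.3% of 381 miRNAs, so passing it did not set bta-miR-26a apart from the rest of the table. With the steer as a block the values were 0.0492, 0.0492 and 0.213. Without the SS299 descending colon library, bta-miR-26a had an adjusted p of 0.299 and bta-miR-26c of 0.303, and with library size alone both had 0.318. With the steer as a block and without that library the values were 0.109 and 0.111, which also miss the FDR. That removal kept the jejunal libraries of SS299, whose scaled levels were high as well. Without all libraries of SS299, and without the block, the values were 0.0316 and 0.0306 by the quasi-likelihood test. Leaving out 1 steer at a time lost the call in 8 of 10 cases for each.

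Of the 15 pairs of regions, 2 passed the FDR for bta-miR-26a. The p-values were adjusted over the miRNAs within each pair, and not over the 15 pairs. Over all miRNAs the share called by the same test was 10.5%, 9.19%, 16.5%, 8.14% and 16.8% for the proximal jejunum, the distal part, the cecum, and the spiral and descending colon, each against the duodenum. Against the proximal jejunum it was 0% for the distal jejunum (with 9 miRNAs at an unadjusted p under 0.05), 14.4% for the cecum, 3.67% for the spiral and 19.9% for the descending colon. Against the distal jejunum it was 12.1% for the cecum, 0% for the spiral colon (with 45 at an unadjusted p under 0.05) and 18.9% for the descending colon. The last 3 shares were 0.525% and 0.787% for the spiral and descending colon against the cecum and 0.262% for the descending against the spiral colon. The descending colon was above the proximal jejunum by 0.62 on the log2 scale (SE 0.21, adjusted p = 0.0443 by the quasi-likelihood test, which called 19.9% of the miRNAs), and the scaled level was higher in 9 of 10 steers. It was above the distal jejunum by 0.57 (SE 0.21, adjusted p = 0.0626, with 18.9% called), also in 9 of 10 steers. SS299 weighs on both. Without its descending colon library the differences were 0.39 (adjusted p = 0.167) and 0.32 (adjusted p = 0.260), and without all libraries of SS299, whose jejunum was high as well, they were 0.54 (adjusted p = 0.0212) and 0.58 (adjusted p = 0.0190), all by the quasi-likelihood test. In this fit the first also lost its call without NS242 (0.60, adjusted p = 0.103) or SS310 (0.60, adjusted p = 0.111). The second lost it without NS108 (0.49, adjusted p = 0.170), NS152 (0.57, adjusted p = 0.112), NS242 (0.49, adjusted p = 0.153), SS274 (0.55, adjusted p = 0.101) or SS310 (0.56, adjusted p = 0.136). The steer as a block reversed some of these losses. With it the first difference was 0.58 (adjusted p = 0.0210) and kept its call whichever steer was left out, as it did without the SS299 descending colon library alone (0.46, adjusted p = 0.0568). The second was 0.54 with the block (adjusted p = 0.0365) and kept its call without NS152 (adjusted p = 0.0623) or SS274 (adjusted p = 0.0549), but not without NS108 (0.130), NS242 (0.138), SS310 (0.103) or the SS299 descending colon library (0.39, adjusted p = 0.119). Against the cecum the descending colon was higher by 0.57 (SE 0.21, adjusted p = 0.331) in 8 of 10 steers, a difference of the same size in a contrast where 0.787% of the miRNAs were called. bta-miR-26c had the same pairs called, at 0.63 and 0.58. Without the SS299 descending colon library these fell to 0.39 (adjusted p = 0.167) and 0.32 (adjusted p = 0.262), and with the block as well they were 0.47 (adjusted p = 0.0579) and 0.40 (adjusted p = 0.120), all by the quasi-likelihood test.

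**Figure D3:**
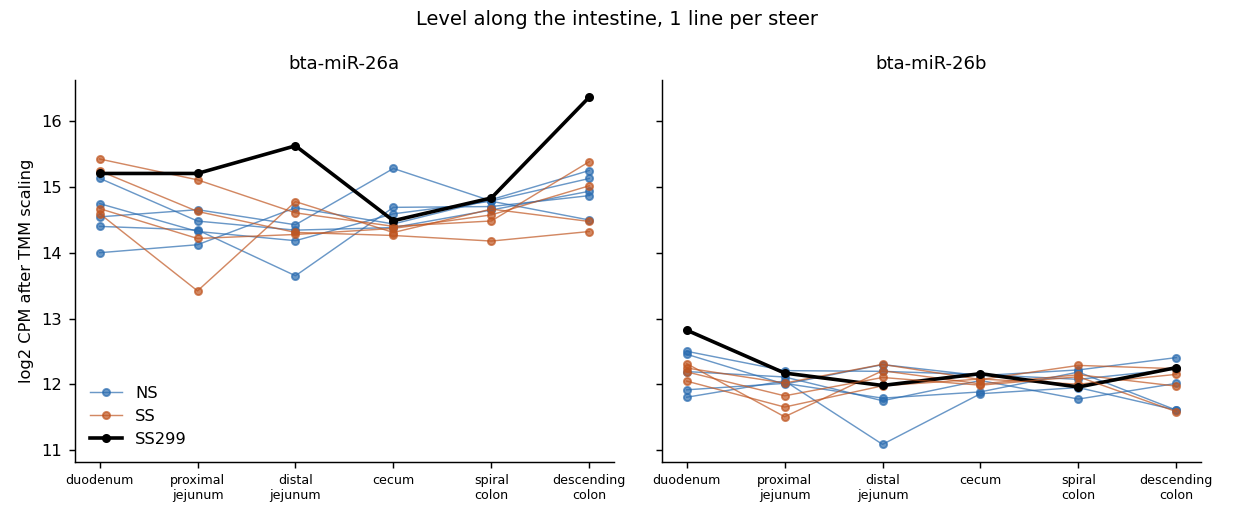
Level of bta-miR-26a (left) and bta-miR-26b (right) as log2 of TMM-scaled CPM in the 6 regions from duodenum to descending colon, with 1 line per steer (NS blue, SS orange, SS299 black). SS299 is the highest line for bta-miR-26a in the distal jejunum (50473 CPM) and in the descending colon (84256 CPM), while its bta-miR-26b values there lie within those of the other steers.

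bta-miR-26b did not follow that course. Its scaled mean was highest in the duodenum, at 4972 ± 1065 CPM, and lay between 4022 and 4332 CPM in the other 5 regions. The duodenum was the highest region in 6 of 10 steers for bta-miR-26b, where bta-miR-26a peaked in the descending colon of 4 steers and the duodenum of 3. The largest of its pairwise differences was the proximal jejunum below the duodenum, at -0.30 on the log2 scale (SE 0.13, adjusted p = 0.141 by the quasi-likelihood test, where 10.5% of the miRNAs were called). Between the large and the small intestine as wholes, the log2 difference was 0.15 for bta-miR-26a (SE 0.12, adjusted p = 0.402), 0.15 for bta-miR-26c (SE 0.12, adjusted p = 0.399) and -0.03 for bta-miR-26b (SE 0.07, adjusted p = 0.783) in a quasi-likelihood test that called 33.6% of 381 miRNAs. Without the SS299 descending colon library, but with its jejunal libraries kept, it was 0.04 for bta-miR-26a and bta-miR-26c. With each whole steer left out in turn it ran from 0.08 to 0.19 for bta-miR-26a and from 0.08 to 0.20 for bta-miR-26c. Their sign turned with library size alone, to -0.09 for both.

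Other lists moved between regions in part. Over the 6 regions the quasi-likelihood test called 3 of 9 epithelial, 0 of 5 smooth muscle, 3 of 4 mesenchymal, 0 of 2 endothelial, 1 of 3 erythrocyte and 1 of 5 leukocyte miRNAs. It called 1 of the 2 neuronal miRNAs tested, both pancreatic miRNAs tested, and bta-miR-122 of the liver. Of 19 members of the let-7, miR-30 and miR-29 families, which like miR-26 are expressed in most tissues, 3 were called. Of 8 other abundant miRNAs, which the study chose on these libraries, 5 were called. These shares stand beside the 32.3% of all miRNAs.

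Between steers of 1 phenotype each member passed the FDR after TMM scaling, and none with library size alone. The F test over steers within NS and within SS, with region as a term, gave an adjusted p of 0.0169 for bta-miR-26a, 0.0272 for bta-miR-26b and 0.0172 for bta-miR-26c by the quasi-likelihood test, and it called 40.2% of 381 miRNAs. Without SS299 the values were 0.599 for bta-miR-26a and 0.644 for bta-miR-26c, and the number of miRNAs called went from 153 to 63. bta-miR-26b had 0.0092 to 0.0949 with each steer left out in turn, and 0.150 without a filter on low counts. With library size alone the values were 0.235 for bta-miR-26a, 0.700 for bta-miR-26b and 0.246 for bta-miR-26c. Of the sum of squares of log2 scaled CPM, the steer accounted for 31.1% in bta-miR-26a and 38.2% in bta-miR-26b, the region for 18.6% and 13.7%, and the phenotype, which is part of the steer share, for 1.65% and 1.36%. Without the SS299 descending colon library the steer and region shares of bta-miR-26a were 24.7% and 14.4%.

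bta-miR-26c and bta-miR-26a had almost the same count in every library. The count of bta-miR-26c was 0.915 to 0.971 of that of bta-miR-26a over 60 libraries that span 12031 to 468549 bta-miR-26a counts, with a mean of 0.941. The SD of the log2 ratio was 0.0159, where counting error alone would give 0.00973 if the 2 counts were independent. This pair had the third smallest SD of 11476 pairs formed by all miRNAs with a mean of at least 100 counts and none at 0. The median SD of a pair was 0.894. The pairs with a smaller SD were bta-miR-339a with bta-miR-339b (0.000863) and bta-miR-2284x with bta-miR-2284y (0.0103), and their spreads were below the 0.107 and 0.0724 that counting of independent reads would give. The next pair was bta-let-7b with bta-miR-3596 (0.0629, where counting of independent reads would give 0.0401). bta-miR-409a and bta-miR-409b, whose genes also share both ends, had only 4058 and 617 counts in all. Their SD was 1.86, where counting of independent reads would give 0.776. Whether bta-miR-26a and bta-miR-26c were counted from the same reads was not tested, and the results of bta-miR-26c are not independent of those of bta-miR-26a.

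**Figure D4:**
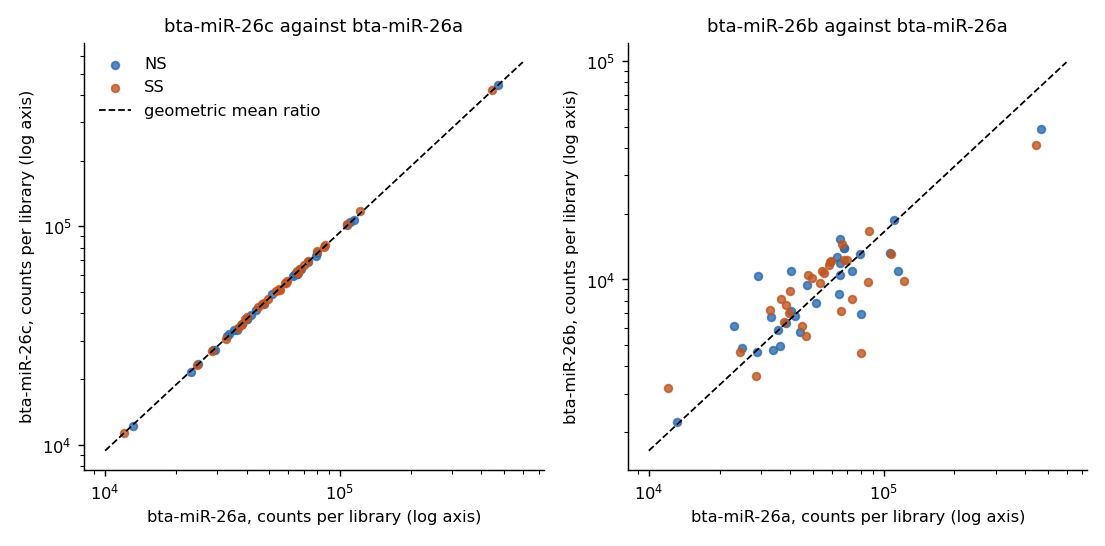
Counts per library of bta-miR-26c (left) and bta-miR-26b (right) against those of bta-miR-26a in 60 libraries (NS blue, SS orange, both axes logarithmic); the dashed line is the geometric mean ratio. The bta-miR-26c points lie on the line, at 0.915 to 0.971 of bta-miR-26a, whereas the bta-miR-26b points spread from 0.058 to 0.354 of it.

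With all steers included, that ratio did not separate the phenotypes. The log2 ratio of bta-miR-26c to bta-miR-26a differed between SS and NS by 0.0014 in the spiral colon (exact two-sided permutation test p = 0.921, n = 5 each) to 0.0135 in the proximal jejunum (exact permutation p = 0.0952), and the adjusted values over the 6 regions lay between 0.571 and 0.921. The smallest p that 5 against 5 allows is 0.00794. With 1 steer left out at a time, the unadjusted exact permutation p ran from 0.00794 to 0.921 for the duodenum. For the proximal jejunum it ran from 0.00794 to 0.198. Over the 6 regions, with labels permuted within steers, p was 0.781.

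bta-miR-26b kept a looser ratio to bta-miR-26a than bta-miR-26c did. The ratio of their counts averaged 0.173 ± 0.053 (SD, n = 60) and ran from 0.058 in the descending colon of SS299 to 0.354 in the duodenum of NS165. The SD of its log2 was 0.473, and the pair took place 657 of 11476 from the smallest, with a steadier ratio than most pairs. Being a ratio within a library, it does not depend on the scaling. In the descending colon it was 0.105 in NS108, 0.235 in NS152, 0.124 in NS165, 0.133 in NS242 and 0.0874 in NS745, and 0.113 in SS274, 0.177 in SS287, 0.222 in SS294, 0.058 in SS299 and 0.0928 in SS310. The mean there, 0.135 (0.143 without SS299), was the lowest of the 6 regions, which otherwise had means from 0.171 to 0.185. Over regions, with labels permuted within steers, p was 0.044 by a permutation test, or 0.088 when adjusted over the 2 ratios tested. Leaving out 1 steer at a time gave p from 0.00467 (without SS294) to 0.173 (without SS310), and 7 of the 10 values were above 0.05.

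Between SS and NS the mean log2 ratio of bta-miR-26b to bta-miR-26a differed by -0.31 for the duodenum, -0.37 for the proximal and -0.17 for the distal jejunum, 0.36 for the cecum, and 0.26 for the spiral and -0.11 for the descending colon. The exact two-sided permutation tests gave p of 0.381, 0.175, 0.667, 0.111, 0.111 and 0.786 in that order (n = 5 each), and none was below 0.333 after adjustment over the 6 regions. The ratios overlapped between the phenotypes in every region. In the spiral colon the overlap came from SS299 alone, at 0.137, where NS ran from 0.137 to 0.170 and the other SS steers from 0.175 to 0.222. With 1 steer left out at a time, the unadjusted exact permutation p ran from 0.00794 to 0.222 there. It ran from 0.0317 to 0.278 for the cecum and from 0.0397 to 0.317 for the proximal jejunum. The 5 SS cecal libraries were close together, with ratios from 0.192 to 0.221, where the NS libraries ran from 0.0953 to 0.205.

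**Figure D5:**
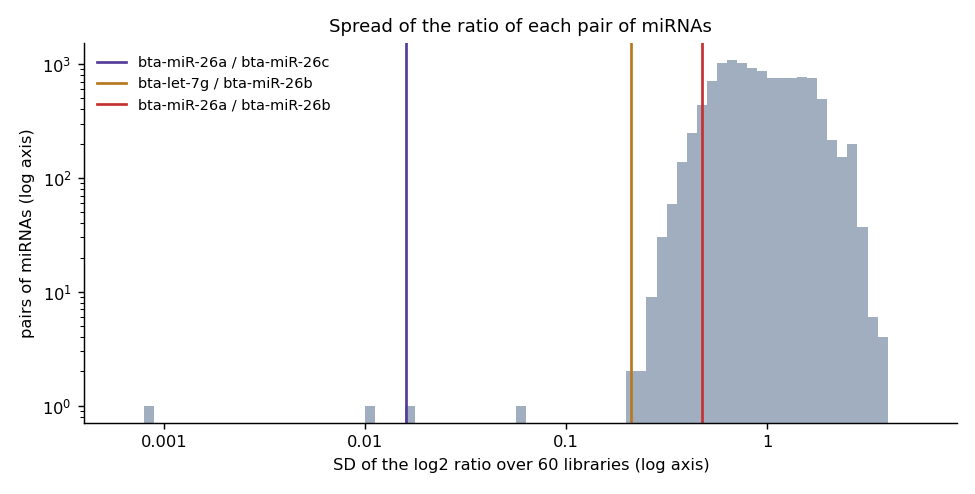
Number of pairs of miRNAs (log axis) by the SD of the log2 ratio of their counts over 60 libraries (log axis), for 11476 pairs of miRNAs with a mean of at least 100 counts. The vertical lines mark bta-miR-26a with bta-miR-26c (0.0159), bta-let-7g with bta-miR-26b (0.211) and bta-miR-26a with bta-miR-26b (0.473).

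The miRNAs whose pattern was most like that of the members were named by Spearman's rho of log2 TMM-scaled CPM over the 60 libraries, which share steers and scaling, among 378 other miRNAs. For bta-miR-26a they were bta-miR-30a-5p (rho = 0.60), bta-miR-23b-3p (0.57), bta-miR-101 (0.56), bta-miR-204 (0.53) and bta-miR-491 (0.52), and the least alike were bta-miR-363 (-0.56) and bta-miR-15b (-0.56). bta-miR-30a-5p stayed first when region means were removed (0.53). By CPM of the library total bta-miR-204 had a rho of 0.26 (place 226), bta-miR-23b-3p of 0.465 (place 81) and bta-miR-491 of 0.458 (place 88). Those of bta-miR-363 and bta-miR-15b turned positive (both 0.37). bta-miR-491 averaged 1.87 CPM, close to the CPM of 1 needed to enter a test. For bta-miR-26b the most alike were bta-let-7g (0.62), bta-let-7f (0.50), bta-miR-148a (0.39), bta-let-7c (0.38) and bta-miR-532 (0.38), and the least alike were bta-miR-2424 (-0.41) and bta-miR-2892 (-0.42). By CPM of the library total the rho of bta-miR-2424 and bta-miR-2892 turned positive (0.41 and 0.10). bta-let-7g, of a family known for its rise as cells differentiate, was also first for bta-miR-26b with region means removed (0.66) and by CPM of the library total (0.88). bta-let-7f was in place 2 and 23 by these measures, and bta-let-7c in place 15 and 154. The ratio of bta-let-7g to bta-miR-26b had the fifth smallest SD of all pairs (0.211). bta-miR-26a and bta-miR-26b themselves had a rho of 0.17, and of 0.57 by CPM of the library total, while bta-miR-26a and bta-miR-26c had 0.999 and 0.998.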

How the data were processed

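Counts of 60 intestinal libraries were analysed, grouped into phenotype and region by the labels. The authors trimmed, filtered and assigned reads with sRNAtoolbox (default parameters), and the raw counts they deposited cover 608 miRNAs. The submitters' processing notes also list Bowtie and edgeR. For the counting, the genome build and miRBase release were not given in the sources used here. All columns with per-sample values were used (0 left out), and RAJ libraries were not analysed here. All 120 pairs of libraries of a group differed by more than sampling noise (chi-square over its degrees of freedom at least 43.9).

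CPM used the library total. miRNAs entered a test when their CPM exceeded 1 in 3 or more steers of either phenotype. Tests used edgeR 4.0.16 in R 4.3.3 with TMM scaling, the quasi-likelihood test and Benjamini-Hochberg adjustment at an FDR of 10%. edgeR's exact test, named in the study's methods, was run as an alternative. SS and NS were compared in each region alone and on sums over regions. Regions were compared over 60 libraries with phenotype as a term. Ratios of counts were compared with exact permutation tests, or with 100000 permutations within steers (scipy 1.17.1, numpy 2.4.6). The labels pair libraries by steer. Within a steer, deviations from group means had a mean correlation of 0.141 (positive in 116 of 150 pairs), beside -0.013 for 1350 pairs of different steers. Reads carry no molecular identifiers, so intervals cover counting error only.

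The members and lists were chosen with earlier results of these data known. Named miRNAs are the 3 members, for bta-miR-26a and bta-miR-26b the 5 most and the 2 least alike in pattern, the 5 pairs with the steadiest ratio, the most abundant list members, and bta-miR-143 and bta-miR-192. bta-miR-409a, bta-miR-409b and bta-miR-122 were added after their values were seen. Alternatives were other scalings, filters, tests (DESeq2 1.42.0 and limma-voom 3.58.1 among them), an FDR of 5%, a table without bta-miR-26c, thinned counts, the steer as a block, and each steer left out. Fits without the 2 deepest libraries or without the SS299 descending colon library (the latter also with the block), and the pairs of regions with steers left out, were chosen after seeing the data.

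Each fit was tested on simulated data with known answers, and it recovered most of the miRNAs that had been moved. Several fits, SS against NS in the duodenum among them, also called more unmoved miRNAs than an FDR of 10% allows. The excess was largest for the large against the small intestine when miRNAs were moved upwards only, and a version that moved miRNAs both ways was added after that was seen. The cause was not tested, and the counts of calls given here may hold the same excess.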

Additional observations from a re-analysis of the deposited data

Results flagged for a closer look

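In 8 of 60 groups of 5 libraries, 1 library lay further from the rest than Dixon's 95% limit. Chance flags about 1 in 20 groups, and the flags of bta-miR-26c repeat those of bta-miR-26a. In the NS descending colon NS242 stood above the other steers for all 3 members, at 66826 CPM of bta-miR-26a (next highest 27867), 62588 CPM of bta-miR-26c (26363) and 8854 CPM of bta-miR-26b (3650). In the same library the smooth muscle list summed to 117500 CPM, bta-miR-143 took 11.7% of the counts, and the TMM-scaled level of bta-miR-26a was 31269 CPM. Their part in the high levels was not tested. In the NS cecum NS108 had 38606 CPM of bta-miR-26a (next 22964) and 36798 CPM of bta-miR-26c (21329), with bta-miR-143 at 16.2% of the counts. In the NS proximal jejunum NS242 had 6032 CPM of bta-miR-26b (next 5044). The ratio of bta-miR-26b to bta-miR-26a was 0.272 in the NS152 distal jejunum (nearest 0.179), and that of bta-miR-26c to bta-miR-26a was 0.915 in the SS299 duodenum (nearest 0.941).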

How the results depend on the processing

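Over 434 alternatives of the SS against NS results of the members, 0 passed the FDR (smallest adjusted p 0.404 by any tool) and 22 had the other sign. The cause of the changes given here was not tested. With library size alone the log2 fold change of SS over NS was -0.06 for bta-miR-26a and -0.05 for bta-miR-26c in the proximal jejunum and 0.06 for both in the spiral colon, and that of the large minus the small intestine was -0.09 for both. The adjusted p over regions was then 0.318 for both, and over steers 0.235 for bta-miR-26a, 0.700 for bta-miR-26b and 0.246 for bta-miR-26c. Without a filter the adjusted p was 0.102 for bta-miR-26a over regions and 0.150 for bta-miR-26b over steers. For bta-miR-26b in the cecum the log2 fold change was -0.02 with filterByExpr and -0.03 without bta-miR-26c in the table. At an FDR of 5% the region values of bta-miR-26a (0.0872) and bta-miR-26c (0.0841) no longer passed. Leaving out the descending colon of NS108 and SS310 they were 0.104 and 0.102, and leaving out that of SS299 they were 0.299 and 0.303, with SS over NS in the descending colon at -0.13 for both. From summed counts, the log2 ratio of bta-miR-26c to bta-miR-26a in the spiral colon differed by -0.0024. By CPM of the library total, rho was 0.57 for bta-miR-26a with bta-miR-26b, 0.56 for bta-miR-26b with bta-miR-26c and 0.88 for bta-miR-26b with bta-let-7g.

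With the steer as a replicate block, the adjusted p over regions was 0.0492 for bta-miR-26a, 0.0492 for bta-miR-26c and 0.213 for bta-miR-26b, 151 miRNAs were called in place of 123, and with all libraries in the fit the block changed no call of a member. With it and without the SS299 descending colon library the adjusted p over regions was 0.109 for bta-miR-26a and 0.111 for bta-miR-26c. It changed calls between pairs of regions when steers were left out, as given with those pairs. Without the block, 1 miRNA was called for the interaction of phenotype and region.

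The number of miRNAs called between SS and NS moved with the test. The exact test of edgeR called 3 for duodenum, 8 for distal jejunum, 3 for cecum and 15 on sums, and DESeq2 called 4, 14, 4 and 14 there and 7 for spiral colon, whereas limma-voom called 0 in each of the 6 regions and on sums. With all libraries in 1 fit, 2 were called for duodenum, 4 for proximal jejunum, 5 for distal jejunum, 1 for spiral colon and 3 for descending colon. The filter filterByExpr gave 0 for proximal jejunum, 1 for distal jejunum and 1 for spiral colon. An FDR of 5% gave 1 for distal jejunum, 0 for cecum, 1 for spiral colon, 1 on sums and 71 over regions. Thinned counts gave 0 for cecum, distal jejunum and spiral colon, library size alone gave 0 for cecum, 1 for spiral colon, 1 on sums and 66 over regions, and RLE gave 1 on sums.

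With each steer left out in turn, the log2 fold change of SS over NS for descending colon ran from -0.13 to 0.41 for bta-miR-26a and to 0.43 for bta-miR-26c, and on sums from -0.05 to 0.16 and from -0.04 to 0.16. For bta-miR-26b it ran from -0.01 to 0.23 for duodenum, -0.06 to 0.05 for cecum, -0.03 to 0.10 for spiral colon and -0.04 to 0.10 on sums, and for the large minus the small intestine from -0.07 to 0.01. The adjusted p over regions ran from 0.0316 (without SS299) to 0.230 (without NS242) for bta-miR-26a by the quasi-likelihood test. For bta-miR-26c it ran from 0.0306 to 0.223, with the same steers left out. Over steers it ran from 0.0182 to 0.599 for bta-miR-26a and 0.0200 to 0.644 for bta-miR-26c. Calls ran from 0 to 1 for duodenum and the proximal jejunum, 0 to 2 for distal jejunum, 0 to 3 for cecum, 1 to 4 for spiral colon, 0 to 6 on sums, 65 to 181 over regions and 63 to 160 over steers. The SS minus NS log2 ratio of bta-miR-26b to bta-miR-26a ran from -0.56 to -0.27 for proximal jejunum, -0.28 to 0.0874 for distal jejunum, 0.17 to 0.45 for cecum, 0.19 to 0.37 for spiral colon and -0.34 to 0.15 for descending colon, and its permutation p over regions from 0.00467 to 0.173. That of bta-miR-26c to bta-miR-26a ran from 0.0014 to 0.0152 for duodenum, 0.0091 to 0.0181 for proximal jejunum, -0.0061 to 0.0097 for spiral colon and -4e-04 to 0.0138 for descending colon.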
